A study of Mus musculus with 6 samples.

Results

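The CD300, CD33 and Siglec receptors are single-pass membrane proteins of the immunoglobulin superfamily that myeloid cells carry in inhibitory and activating forms. The genes described here were taken by family and symbol, with no threshold on a measured value, but with earlier results of these data known: the CD300 genes Cd300a, Cd300c2, Cd300lb, Cd300ld and Cd300lf, the sialic acid binding genes Cd33, Siglece, Siglecf and Siglecg, and Siglec1. They are 10 of the 27179 genes in the expression table, and 9 of them passed the filter for testing, a mean of at least 1 RPKM (reads mapped to a gene, scaled to its transcript length and to the size of the library) over all libraries.

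RNA was sequenced from leukemia-initiating cells (LICs) of a mouse model of acute myeloid leukemia driven by the MLL-AF9 fusion. Lin- fetal liver cells of Asic3+/+ mice (the group called WT) or Asic3-/- mice (the group called Asic3-null) had been infected with an MSCV retrovirus carrying MLL-AF9, IRES and YFP, and were transplanted into lethally irradiated C57BL/6 recipients. YFP+ Mac-1+ c-Kit+ cells were then sorted from bone marrow. Both groups thus carried MLL-AF9 and YFP from a virus, on the C57BL/6 strain and at 8 weeks of age by their labels, and differed by label only in the Asic3 genotype, which encodes an acid-sensing ion channel subunit. Each group had 3 libraries. The study's methods state in general that experiments were repeated biologically, but the sources used here do not tie each library to a separate mouse. Where libraries share a mouse, p-values measure only the spread between these samples, which may then be technical.

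CD300 and Siglec receptors act mostly at the cell surface as brakes or accelerators of myeloid activation. Inhibitory members carry immunoreceptor tyrosine-based inhibitory motifs (ITIMs) in their cytoplasmic tails, which recruit the phosphatases SHP-1 and SHP-2 once Src family kinases have phosphorylated them. Activating members have short tails and pair instead with the adaptors DAP12 or the Fc receptor gamma chain, which signal through Syk. CD300 receptors bind lipids such as phosphatidylserine and phosphatidylethanolamine that are exposed on dying cells, whereas Siglecs bind sialic acids at the ends of glycan chains. CD33 is a widely used surface marker and antibody target in human acute myeloid leukemia.

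Several facts of the libraries bear on every comparison. The libraries held 1947168 to 2381861 reads, and the median tested gene had 81 reads per library. Asic3 stood at 9.12, 4.11 and 6.58 RPKM in the Asic3-null-labelled libraries and at 1.22, 1.85 and 0.435 RPKM in the WT-labelled ones, which goes against the labels (log2 fold change 1.81, limma adjusted p = 0.026). Leaving out Asic3-null replicate 1 or 3 (0.0981 and 0.111) or WT replicate 1 or 3 (0.0932 and 0.0768) ended that call. So did testing genes of any level (0.0623) or fitting replicate number as a block (0.0598), while the direction held. Which exons the Asic3 allele lacks is not given in the sources used here. Xist was high in the Asic3-null-labelled libraries, while Eif2s3y, Uty, Kdm5d and Ddx3y of the Y chromosome were at 0 there and present in all WT-labelled libraries, so that sex and genotype cannot be told apart. The groups are therefore named below by their labels only, and every direction is that of the Asic3-null-labelled libraries against the WT-labelled libraries. Of the sorting markers, Itgam, which encodes the Mac-1 alpha chain, stood at 12.9, 12.3 and 16.9 against 89.5, 85.7 and 55.1 RPKM (log2 fold change -2.35, limma adjusted p = 0.00072), and Kit at 14.4, 17.9 and 20.4 against 9.09, 15.3 and 8.97 RPKM (0.64, limma adjusted p = 0.219).

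All 9 tested receptors had lower mean log2 levels in the Asic3-null-labelled libraries, and 3 of them, Cd300lf, Siglece and Siglecg, fell by the test (limma on log2(RPKM + 1), Benjamini-Hochberg adjusted p under 0.05 over 12037 genes). No receptor rose. Siglecg passed the filter on low values only through its WT-labelled libraries, and with no filter its limma adjusted p was 0.0597. Over all tested genes, 45.5% had a negative log2 fold change, 3.35% were called, 2.82% lower and 0.523% higher. The fit to recovered reads with limma-voom also called 3 receptors lower, beside 3.75% of all tested genes. The median log2 fold change of the 9 receptors was -0.81, beside 0.03 over all tested genes. In 6 of the 9 the libraries of the groups did not overlap, beside 11.4% of all tested genes lower without overlap, and 7 of the 9 had an unadjusted p under 0.05 with a lower level, beside 9.45% of all tested genes. With 3 libraries against 3, the exact two-sided permutation test of a single gene cannot go below 0.10, and it gave 0.1 for each of the 6. In such bulk samples, fewer cells that express a receptor and less of its mRNA per cell cannot be told apart.

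**Figure D1:**
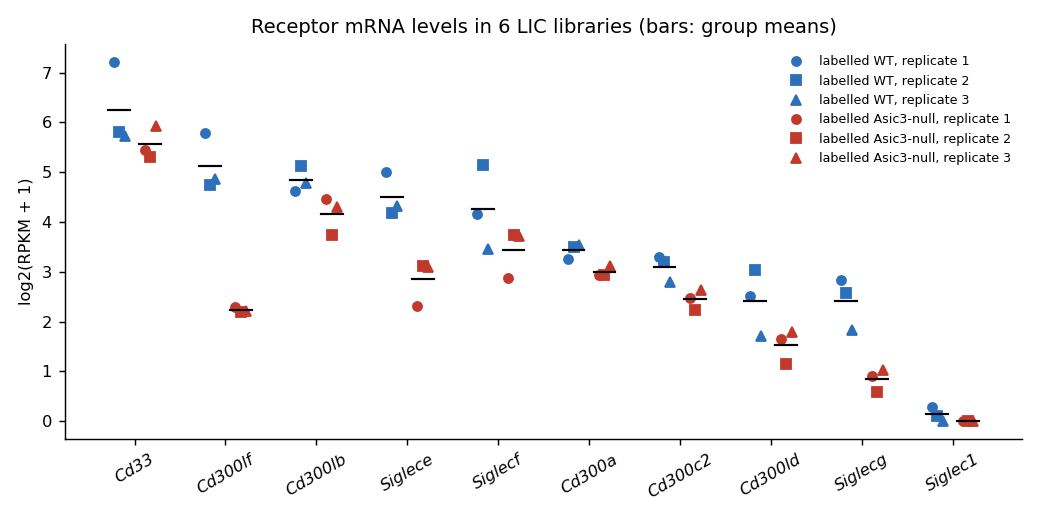
Level of each of the 10 receptors, as log2(RPKM + 1), in the 3 libraries labelled WT (blue) and the 3 labelled Asic3-null (red), with bars at the group means and receptors ordered by their mean in the WT-labelled libraries. Cd300lf lies at 25.6 to 54.5 RPKM in the WT-labelled libraries and at 3.56 to 3.895 RPKM in the Asic3-null-labelled ones, while Cd33 and Siglecf overlap between the groups.

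Cd300lf changed most among the receptors. It encodes CLM-1, an inhibitory CD300 receptor with ITIMs in its tail that binds phosphatidylserine. In the order of replicates 1, 2 and 3, its mRNA was at 3.895, 3.56 and 3.61 RPKM in the Asic3-null-labelled libraries and at 54.5, 25.6 and 28.01 RPKM in the WT-labelled ones. The former libraries lay close together and far below the lowest of the latter. Means of 3.69 ± 0.178 and 36.0 ± 16.0 RPKM (SD, n = 3 each) differed 9.76-fold. The log2 fold change on the log2(RPKM + 1) scale was -2.90 ± 0.27 (SE, 95% interval -3.51 to -2.29, limma adjusted p = 0.000836). These levels rest on 17, 16 and 16 reads against 216, 94 and 125 reads. The gene (Entrez 246746) lies at chr11:115116214-115135372 (GRCm38), within the span of Rab37. Rab37 itself was at 9.85, 10.6 and 11.99 RPKM against 9.9997, 11.5 and 8.13 RPKM, and was not called (log2 fold change 0.13, limma adjusted p = 0.786). The libraries were not stranded, so that reads of overlapping genes could be counted for either.

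The second inhibitory CD300 receptor, Cd300a (Entrez 217303, chr11:114889152-114901946), differed far less. Its product, CLM-8, also recruits SHP-1 through ITIMs. Cd300a was at 6.70, 6.69 and 7.61 RPKM in the Asic3-null-labelled libraries and at 8.50, 10.3 and 10.6 RPKM in the WT-labelled ones. The groups did not overlap, but the gap between them was small, with means of 7.002 ± 0.53 and 9.81 ± 1.15 RPKM (SD, n = 3 each). The log2 fold change was -0.43 (95% interval -0.83 to -0.03, limma adjusted p = 0.281).

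Cd300lb, Cd300c2 and Cd300ld, whose products pair with activating adaptors, all had lower means in the Asic3-null-labelled libraries, and none was called. Cd300lb (Entrez 217304, chr11:114922779-114934371) encodes CLM-7, which signals through DAP12, and was the most abundant of them. It stood at 21.0, 12.4 and 18.8 RPKM against 23.8, 33.7 and 26.4 RPKM (log2 fold change -0.67, 95% interval -1.17 to -0.17, limma adjusted p = 0.175). Its groups came close to each other without overlap.

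Cd300c2 (Entrez 140497, chr11:114996721-115004261), which encodes CLM-4, a receptor that pairs with DAP12 or the Fc receptor gamma chain, was at 4.55, 3.69 and 5.23 RPKM against 8.77, 8.12 and 5.93 RPKM (log2 fold change -0.64, 95% interval -1.14 to -0.15, limma adjusted p = 0.196). Again the groups did not overlap. Only 10 to 21 reads per library stand behind these values. Cd300ld (Entrez 217305, chr11:114982443-114989886), the gene of CLM-5, was at 2.12, 1.204 and 2.44 RPKM against 4.68, 7.16 and 2.25 RPKM (log2 fold change -0.89, 95% interval -1.70 to -0.07, limma adjusted p = 0.273). WT replicate 3 lay within the range of the Asic3-null-labelled libraries, and the exact permutation p was 0.2. Without WT replicate 2 the log2 fold change was -0.58. The genes of the CD300 cluster are close paralogs, so that reads may be divided among them, and the end of Cd300c2 overlaps Cd300ld4, which was at 0 in all libraries.

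Siglece fell as well. It encodes Siglec-E, the main inhibitory Siglec of mouse neutrophils, monocytes and macrophages, with ITIM motifs in its tail. Its mRNA was at 3.97, 7.72 and 7.60 RPKM in the Asic3-null-labelled libraries and at 31.1, 17.2 and 19.0 RPKM in the WT-labelled ones. Each of the latter was more than any of the former. Mean levels of 6.43 ± 2.13 and 22.4 ± 7.57 RPKM (SD, n = 3 each) differed 3.49-fold, and the log2 fold change was -1.66 ± 0.29 (SE, 95% interval -2.31 to -1.0019, limma adjusted p = 0.0175). The levels rest on 17, 34 and 33 reads against 121, 62 and 83 reads. The call depended on single libraries: without Asic3-null replicate 3, WT replicate 1 or WT replicate 3 the adjusted p was 0.0585, 0.074 or 0.0566. The gene (Entrez 83382) lies at chr7:43648882-43672044 and its ends overlap Ceacam18, which stood at 1.47 RPKM or less, and Ctu1, which was not called (log2 fold change -0.11, limma adjusted p = 0.78).

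Siglecg also fell, from a low level. Its product, Siglec-G, is an inhibitory receptor best known from B-1 cells and dendritic cells. It stood at 0.869, 0.507 and 1.03 RPKM in the Asic3-null-labelled libraries against 6.13, 4.96 and 2.55 RPKM in the WT-labelled ones, with no overlap. Group means stood at 0.802 ± 0.267 and 4.55 ± 1.82 RPKM (SD, n = 3 each), a 5.67-fold difference. On the log2(RPKM + 1) scale, which understates the change of such a low gene, the log2 fold change was -1.57 ± 0.32 (SE, 95% interval -2.30 to -0.85, limma adjusted p = 0.0333). A fit to the recovered reads gave -2.32 (limma-voom adjusted p = 0.0213), but these were only 5, 3 and 6 reads against 32, 24 and 15 reads. Leaving out Asic3-null replicate 1, 2 or 3 ended the call (limma adjusted p = 0.0866, 0.105 and 0.0961), as did leaving out WT replicate 1 or 2 (0.121 and 0.124) or testing genes of any level (0.0597). Of the B cell markers, Ms4a1 and Fcer2a were at 0 in all libraries, and the summed list lay at 37.3 to 47.6 RPKM against 42.0 to 49.996 RPKM, nearly all of it Cd79b. Siglecg (Entrez 243958) lies at chr7:43408192-43418349.

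Cd33 was the most abundant receptor in both groups and was not called. It was at 42.5, 38.5 and 60.3 RPKM in the Asic3-null-labelled libraries and at 148, 55.3 and 51.8 RPKM in the WT-labelled ones. WT replicate 1 stood far above the other 5 libraries, whose groups overlapped. The log2 fold change was -0.69 (95% interval -1.52 to 0.14, limma adjusted p = 0.401; exact permutation p = 0.3), and without WT replicate 1 it was -0.21. Cd33 (Entrez 12489) lies at chr7:43527399-43537424.

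Siglecf, the gene of Siglec-F, a marker of eosinophils and alveolar macrophages, was likewise not called. It was at 6.36, 12.4 and 12.2 RPKM against 16.9, 34.2 and 10.02 RPKM (log2 fold change -0.81, 95% interval -1.73 to 0.11, limma adjusted p = 0.372; exact permutation p = 0.3). WT replicate 2 was highest and WT replicate 3 lay within the other group's range. Leaving out WT replicate 2 gave a log2 fold change of -0.37, leaving out WT replicate 3 gave -1.20, and leaving out Asic3-null replicate 1 gave -0.52. The summed eosinophil markers were also highest in WT replicate 2, at 59.0 RPKM, beside 8.28 to 23.2 RPKM in the other 5 libraries, and their part in the Siglecf level was not tested. Ear1, Il5ra and Ccr3 were at 0 in all libraries. Siglecf (Entrez 233186) lies at chr7:43351341-43359475.

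Siglec1 (Entrez 20612, chr2:131067801-131086778), which encodes the macrophage adhesion receptor sialoadhesin, was hardly detected. It had 3 reads in WT replicate 1, 1 read in WT replicate 2 and 0 reads in the other 4 libraries, which allows a level of up to 0.197 to 0.203 RPKM in each Asic3-null-labelled library (3 reads, for counting error only). It was under the filter, and its log2 fold change with no filter was -0.13 (limma adjusted p = 0.64), so that a difference was not detectable at this depth.

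**Figure D2:**
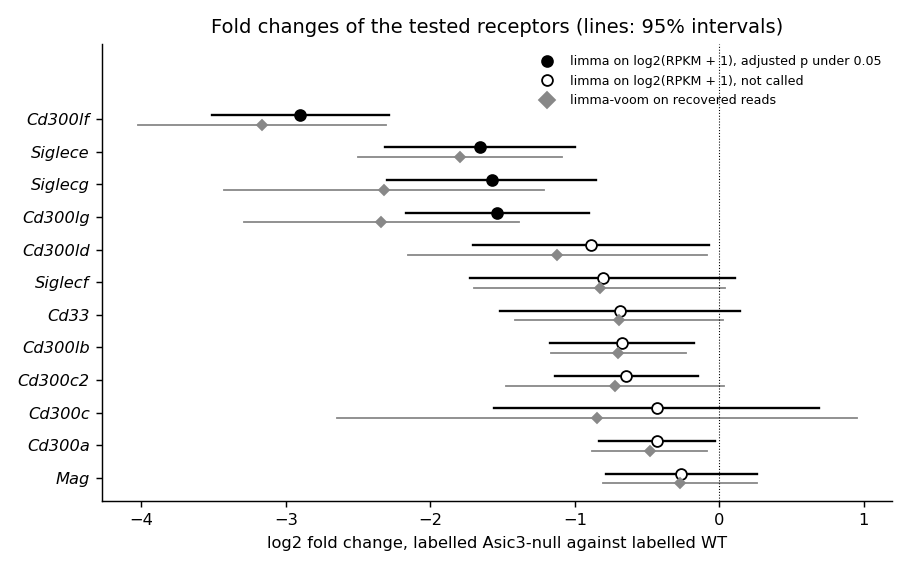
Log2 fold change of the 9 tested receptors and of the tested family genes Cd300lg, Cd300c and Mag, labelled Asic3-null against labelled WT, with 95% intervals from limma on log2(RPKM + 1) (black; filled where the adjusted p was under 0.05) and from limma-voom on recovered reads (grey). All 12 points lie below 0, and Cd300lf, at -2.90, has the lowest.

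Levels of the CD300 genes relative to each other, which restate the values above, differed in the ratios that hold Cd300lf. The summed RPKM of Cd300lf and Cd300a, relative to that of Cd300lb, Cd300c2 and Cd300ld, was 0.383, 0.593 and 0.424 in the Asic3-null-labelled libraries and 1.69, 0.733 and 1.12 in the WT-labelled ones. Every WT-labelled library was above every Asic3-null-labelled one, though WT replicate 2 only narrowly. With Cd300a alone in place of the inhibitory sum the ratio was 0.242, 0.387 and 0.288 against 0.228, 0.210 and 0.308, and the groups overlapped. The level of Cd300lf relative to Cd300lb was 0.186, 0.288 and 0.192 against 2.29, 0.760 and 1.06, again without overlap. Siglece relative to Cd33 was 0.0934, 0.200 and 0.126 against 0.211, 0.311 and 0.366. These ratios were not tested.

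Summed over the 10 receptors, the Asic3-null-labelled libraries held 92.0, 86.7 and 119 RPKM and the WT-labelled ones 302, 197 and 157 RPKM. Cd33 was the largest share in all 6 libraries. Cd300lf made up 4.24%, 4.11% and 3.04% of the sum in the former and 18.0%, 13.02% and 17.9% in the latter.

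**Figure D3:**
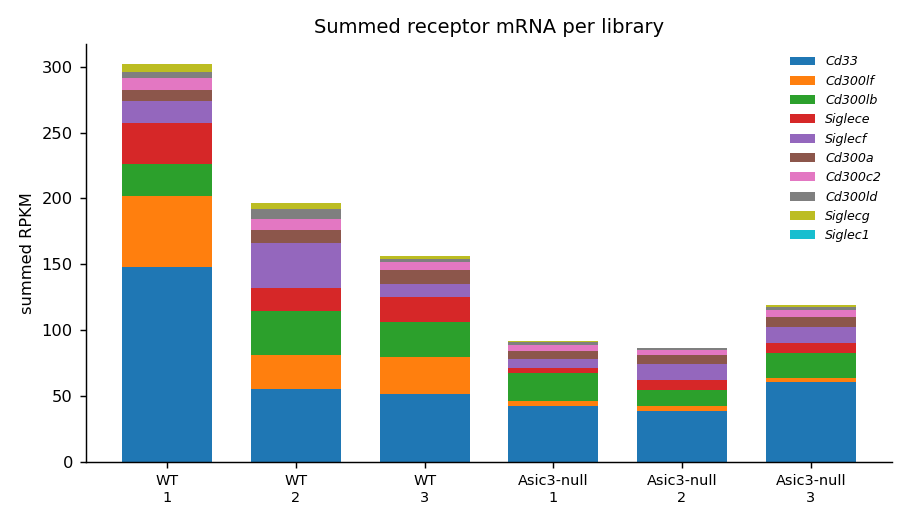
Summed RPKM of the 10 receptors in each of the 6 libraries, stacked by gene. The sums run from 157 to 302 RPKM in the WT-labelled libraries and from 86.7 to 119 RPKM in the Asic3-null-labelled ones, and the Cd300lf segment is 13.02% to 18.0% of the former and 3.04% to 4.24% of the latter.

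The order of the receptors by mean RPKM changed accordingly. In the WT-labelled libraries it ran from Cd33 at 84.9 through Cd300lf at 36.0, Cd300lb at 27.96, Siglece at 22.4, Siglecf at 20.4, Cd300a at 9.81, Cd300c2 at 7.61, Cd300ld at 4.69 and Siglecg at 4.55 to Siglec1 at 0.101 RPKM. The ranges of all neighbours in this order overlapped except those of Siglecg and Siglec1. In the Asic3-null-labelled libraries it ran from Cd33 at 47.1 through Cd300lb at 17.4, Siglecf at 10.3, Cd300a at 7.002, Siglece at 6.43, Cd300c2 at 4.49, Cd300lf at 3.69, Cd300ld at 1.92 and Siglecg at 0.802 to Siglec1 at 0 RPKM. Here the neighbours from Siglecf to Cd300lf overlapped, and the others did not. Cd300lf thus stood second in one group and seventh in the other.

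Most other genes of both families were nearly silent. Of 11 listed, 3 were tested, and Cd300ld2, Cd300ld4, Cd300ld5 and Siglec15 were at 0 in all libraries. Cd300lg, which encodes nepmucin, a vascular adhesion receptor, fell from 5.40, 3.76 and 3.71 RPKM in the WT-labelled libraries to 1.26, 0.461 and 0.779 RPKM in the Asic3-null-labelled ones (log2 fold change -1.54 ± 0.28 SE, limma adjusted p = 0.0205). With a mean of 0.835 RPKM in the latter, Cd300lg passed the filter on low values only through its WT-labelled libraries. These levels rest on 31, 20 and 24 reads against 8, 3 and 5 reads. With no filter the limma adjusted p of Cd300lg was 0.0376. Leaving out Asic3-null replicate 2 or 3 (0.0672 and 0.0835) or any WT replicate (0.0818, 0.0632 and 0.0529) ended its call. Cd300c and Mag, the myelin Siglec, were not called (log2 fold changes -0.43 and -0.26, limma adjusted p = 0.718 and 0.62). Cd22, the B cell Siglec, did not exceed 1.32 RPKM in any library.

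Apart from Siglec1, the receptors lie in a pair of gene clusters, whose neighbouring genes were mostly near a log2 fold change of 0. The CD300 cluster on chromosome 11 spans 246 kb with 5 of the receptors, and the Siglec cluster on chromosome 7 spans 321 kb with 4. Within 500 kb of the CD300 cluster, 22 genes of other families were tested and 0 were called in either direction by limma, with a median log2 fold change of 0.01 and a range of -0.81 to 0.68. Of these, 2 had an unadjusted p under 0.05, a share below the 15.9% of all tested genes, and limma-voom called 1, Tmem104, whose log2 fold change of -0.81 just missed the threshold with limma (adjusted p = 0.0541 and, with limma-voom, 0.0193). Around the Siglec cluster, 9 genes of other families were tested and 0 were called by limma or limma-voom or had an unadjusted p under 0.05, with a median of -0.11 and a range of -0.39 to 0.41.

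**Figure D4:**
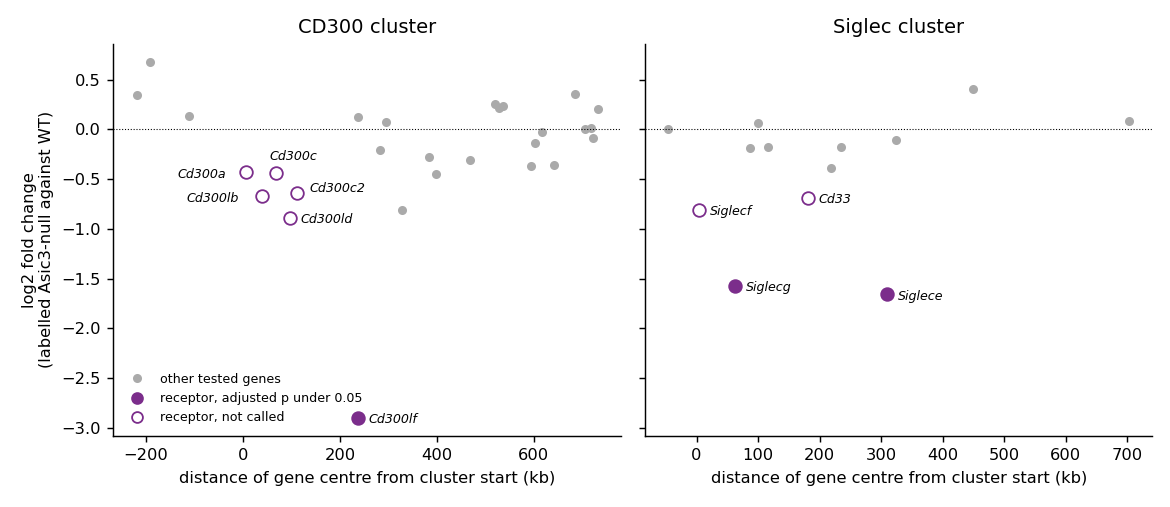
Log2 fold change (labelled Asic3-null against labelled WT) of receptor genes (purple; filled where the adjusted p was under 0.05) and tested genes of other families within 500 kb (grey), by distance in kb of the gene's centre from the start of the CD300 cluster (left) and of the Siglec cluster (right). Cd300lf at -2.90, Siglece at -1.66 and Siglecg at -1.57 lie below all of their neighbours.

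The promoter windows of the called receptors are shown, with that of Cd300ld, which shares a motif with Cd300lf. Shared regulation of these genes was not tested. RefSeq windows (GRCm38.p6, 250 bases before to 50 after the start site) exist in the table used for 9 of the 10 receptors. They were searched on both strands for GAGGAAGT, letters bound by the myeloid factor PU.1, and for the C/EBP letters TTGCNNNAA and TTGCGNAA. Capitals mark GAGGAAGT, the letters found, and all sequences read 5′ to 3′ along the gene. The windows are chr11:115133943-115134242 for Cd300lf, chr11:114989837-114990136 for Cd300ld and chr7:43660112-43660411 for Siglece, all on the minus strand, and chr7:43407989-43408288 on the plus strand for Siglecg, the first of its windows. The windows of Cd300lf and Siglece lie within the gene spans given above, which end at chr11:115135372 and chr7:43672044. Those of Cd300a, Cd300c2 and Cd33 likewise lie within their genes. Start sites at the outer ends of these genes were not searched.
Cd300lf: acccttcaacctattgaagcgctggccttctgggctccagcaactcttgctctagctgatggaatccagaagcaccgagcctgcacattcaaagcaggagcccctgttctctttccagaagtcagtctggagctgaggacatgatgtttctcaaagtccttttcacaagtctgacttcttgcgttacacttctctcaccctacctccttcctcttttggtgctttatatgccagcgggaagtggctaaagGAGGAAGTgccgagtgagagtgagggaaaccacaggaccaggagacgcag
Cd300ld: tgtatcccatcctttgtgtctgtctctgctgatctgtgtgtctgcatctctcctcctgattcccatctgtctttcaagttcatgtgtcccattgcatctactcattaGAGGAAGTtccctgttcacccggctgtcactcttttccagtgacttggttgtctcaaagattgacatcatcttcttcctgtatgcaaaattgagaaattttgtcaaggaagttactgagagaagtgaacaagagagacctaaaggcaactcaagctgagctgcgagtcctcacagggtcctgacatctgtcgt
Siglece: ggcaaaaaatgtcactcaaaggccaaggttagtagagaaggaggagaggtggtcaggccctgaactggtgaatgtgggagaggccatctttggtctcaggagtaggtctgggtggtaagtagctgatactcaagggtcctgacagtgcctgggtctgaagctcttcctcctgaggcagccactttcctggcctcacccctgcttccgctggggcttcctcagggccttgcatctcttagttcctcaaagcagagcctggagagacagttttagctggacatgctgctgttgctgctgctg
Siglecg: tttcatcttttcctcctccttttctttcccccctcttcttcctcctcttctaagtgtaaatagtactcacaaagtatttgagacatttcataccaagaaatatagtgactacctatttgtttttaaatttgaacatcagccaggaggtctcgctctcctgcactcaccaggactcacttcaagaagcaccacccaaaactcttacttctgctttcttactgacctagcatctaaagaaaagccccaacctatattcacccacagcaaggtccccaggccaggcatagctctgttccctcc
GAGGAAGT occurred in 2 of the 9 receptors with a window, beside 3.2% of all 32851 windows. In Cd300lf its first letter was at the start site of the window used, and in Cd300ld it was 143 bases before that of its window. The same letters stood 187 bases before the start of Cd300ld3, Cd300ld4 and Cd300ld5, genes at or near 0 in all libraries. TTGCNNNAA, in 9.56% of all windows, and TTGCGNAA, in 0.798%, were in 0 of the receptors' windows. Such a match is a description of the letters, and does not show a bound site.

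Among the genes that inhibitory tails signal through, 0 of 11 tested were called in either direction by limma, with a median log2 fold change of -0.22, and 3 of 11 had an unadjusted p under 0.05, beside 15.9% of all tested genes in either direction. Ptpn6, which encodes SHP-1, was abundant, at 123, 142 and 161 RPKM against 178, 188 and 203 RPKM (log2 fold change -0.43, limma adjusted p = 0.153). Dok3, an adaptor that dampens immune receptor signals, stood at -0.49 (limma adjusted p = 0.125). Socs3, a cytokine signal inhibitor, was at 3.16, 3.84 and 3.74 RPKM against 21.8, 6.20 and 13.6 RPKM (log2 fold change -1.55, limma adjusted p = 0.0605), and was called by limma-voom on recovered reads (adjusted p = 0.0383) and without WT replicate 2 (limma adjusted p = 0.0164).

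Of the adaptors and kinases of activating receptors, 4 of 15 tested fell and 0 rose, beside 2.82% and 0.523% of all tested genes, with a median log2 fold change of -0.19. Fgr, a Src family kinase of myeloid cells, fell most, to 1.03, 1.63 and 1.14 RPKM from 15.0, 9.80 and 7.18 RPKM (log2 fold change -2.32 ± 0.28 SE, limma adjusted p = 0.00302). The related kinase Lyn, which phosphorylates tails of both kinds, fell by 0.77 on the log2 scale (limma adjusted p = 0.0287). Fcer1g, which encodes the Fc receptor gamma chain, fell from 551, 520 and 459 RPKM to 317, 309 and 348 RPKM (log2 fold change -0.65, limma adjusted p = 0.0198). Tyrobp, the gene of DAP12, had a log2 fold change of -0.49 (limma adjusted p = 0.071). Fgr was called with any 1 library left out, but Lyn was lost without each of the 6 (limma adjusted p = 0.0629 to 0.109), and Fcer1g without any library but WT replicate 3 (0.0614 to 0.0862).

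The genes that make, transfer or remove sialic acids, the Siglec ligands, included 2 that fell and 0 that rose. Of 33 listed, 16 were tested, with a median log2 fold change of -0.02, and 4 of them had an unadjusted p under 0.05. Over all tested genes, 2.82% were called lower and 15.9% had an unadjusted p under 0.05. The enzymes that fell were St3gal5, the GM3 synthase, at 4.59, 2.23 and 1.91 RPKM against 9.52, 12.2 and 9.66 RPKM (log2 fold change -1.60, limma adjusted p = 0.0164), and St3gal1, which sialylates O-glycans, at 2.39, 1.96 and 2.06 RPKM against 5.02, 5.42 and 5.48 RPKM (log2 fold change -1.01, limma adjusted p = 0.0366). St3gal5 was lost without any library but Asic3-null replicate 1 (0.0592 to 0.0844), and St3gal1 without each of the 6 (0.0753 to 0.119). The lysosomal sialidase gene Neu1 was not called (log2 fold change -0.45, limma adjusted p = 0.212). Of 5 carriers of sialylated glycans, 0 were called in either direction by limma or limma-voom and 1 had an unadjusted p under 0.05. Their median was -0.08, with log2 fold changes of -0.47 for Selplg, the P-selectin ligand, 0.62 for Cd24a, a ligand of Siglec-G, and -0.38 for Ptprc, which encodes CD45 (limma adjusted p = 0.0833, 0.315 and 0.448). With a library left out, Cd24a ran from 0.42 to 0.94 and Ptprc from -0.55 to -0.15.

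Many other paired receptors of myeloid cells fell as well. Of 22 tested genes of this kind 9 fell and 0 rose, with a median log2 fold change of -1.13. Over all tested genes, 2.82% fell and 0.523% rose. Pirb, the inhibitory immunoglobulin-like receptor of mouse myeloid cells, was at 3.01, 2.92 and 3.903 RPKM against 50.9, 24.1 and 19.5 RPKM (log2 fold change -2.81, limma adjusted p = 0.00221), a size close to that of Cd300lf. Lilrb4a and Lilr4b, a pair of near-identical genes whose reads may be divided between them, had log2 fold changes of -2.17 and -2.08 (limma adjusted p = 0.00597 and 0.00904). Sirpb1a was at -2.14, and the paired genes Pilra and Pilrb1 were at -1.82 and -1.76 (limma adjusted p = 0.0125, 0.0109 and 0.00983). Sirpb1a and Pilrb1 were low genes that fall under a mean of 5 RPKM. A pseudocount of 0.1 changed their log2 fold changes to -4.03 and -2.32. The C-type lectin receptor genes Clec4e, Clec4a2 and Clec7a were at -1.45, -1.35 and -1.18 (limma adjusted p = 0.0138, 0.0147 and 0.0373). Pirb and Lilrb4a were called with any 1 library left out. Lilr4b was lost without WT replicate 2 (0.0581), Pilrb1 without WT replicate 1 (0.0552), Pilra without Asic3-null replicate 3 or WT replicate 2 (0.0629 and 0.0552), and Sirpb1a without Asic3-null replicate 3 or WT replicate 1 or 2 (0.0598, 0.0583 and 0.0613). Clec4a2 was lost without Asic3-null replicate 1 or 3 or WT replicate 1 or 2 (0.0549, 0.0713, 0.0617 and 0.0671), Clec4e without Asic3-null replicate 1 or WT replicate 1 or 2 (0.051, 0.0617 and 0.0583), and Clec7a without any library but WT replicate 3 (0.0969 to 0.15). With replicate number as a block, Clec4e and Clec7a were lost too (0.0516 and 0.0782). Clec7a was also lost with no filter or no intensity trend (0.0766 and 0.0697).

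**Figure D5:**
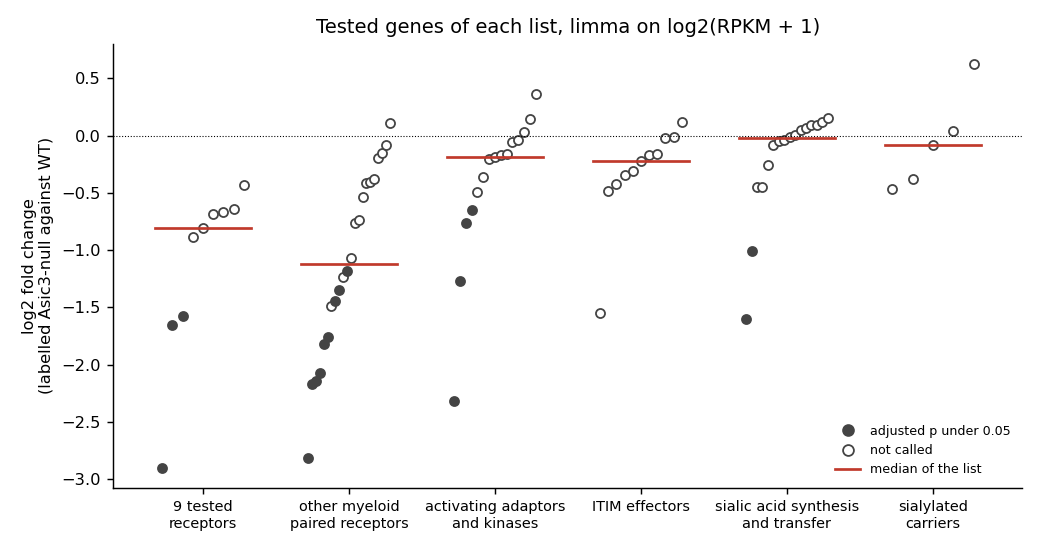
Log2 fold change (labelled Asic3-null against labelled WT) of each tested gene in 6 lists, sorted within each list, filled where the adjusted p was under 0.05, with a red line at the list's median. The medians lie at -0.81 for the 9 receptors, -1.13 for the other paired receptors and between -0.22 and -0.02 for the other 4 lists.

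Markers of neutrophils and monocytes, and the sum of macrophage markers, were also lower in the Asic3-null-labelled libraries. Over all tested genes, 2.82% were called lower and 0.523% higher. The summed RPKM of 8 neutrophil markers was 116 to 176 in the Asic3-null-labelled libraries and 1639 to 1906 in the WT-labelled ones, and all 6 tested ones (Camp, Ltf, Ngp, Lcn2, Retnlg and Mmp8) fell. Of the 6 monocyte markers, 4 fell (Ccr2, Csf1r, F13a1 and Ms4a6c), with sums of 1116 to 1280 against 1635 to 1784 RPKM. Macrophage markers summed to 10.4 to 16.8 against 27.7 to 33.7 RPKM, mostly from Adgre1, the 1 of 3 tested that fell. Their part in the levels of Cd300lf, Siglece and Siglecg was not tested. Sums of mast cell and basophil markers (115 to 127 against 57.4 to 128 RPKM) and plasmacytoid dendritic cell markers (116 to 137 against 85.1 to 135 RPKM) overlapped between the groups, with Cox6a2 of the latter list higher (log2 fold change 1.51, limma adjusted p = 0.0447) on 1 to 11 reads per library and not called by limma-voom (adjusted p = 0.121). Erythroid sums overlapped too (0.972 to 2.41 against 2.09 to 6.91 RPKM). So did eosinophil sums (8.28 to 23.2 against 12.7 to 59.0 RPKM), and 0 of 3 tested eosinophil markers were called. The 2 tested mast cell and basophil markers had a median log2 fold change of 0.55, and 0 were called. T and NK cell markers did not exceed 0.502 RPKM in sum.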

How the data were processed

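RNA was extracted from sorted LICs, and libraries were made with an unstranded TruSeq kit. Per the labels and the submitters' processing notes, the authors used CASAVA 1.8.2 and TopHat2 2.0.12 with GRCm38. The counting tool and annotation are not given in the sources used here. The deposited values are RPKM per gene and library. Each was a whole multiple, within 0.0001 reads, of the RPKM of 1 read in all 16825 genes above 0, which gave back the reads. At 2 kb, 1 read was worth 0.21 to 0.257 RPKM.

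Genes with a mean of at least 1 RPKM were tested with limma 3.58.1 (R 4.3.3, intensity trend) on log2(RPKM + 1), with Benjamini-Hochberg adjustment over 12037 genes. The groups followed the labels, with no covariate. Single receptors were also compared by an exact permutation test (scipy 1.17.1). The main alternative was limma-voom on recovered reads, which called 3.75% of the tested genes lower and the same number of receptors, 3. The scripts were tested on simulated data. Fold changes on this log scale understate those of low genes.

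The receptors and the gene lists were chosen with earlier results of these data known. All receptors are named, and of each list the 3 tested genes with the lowest p and every gene called, except for items that are counted in their lists but not reported here. The lists cover other family genes, ITIM effectors, activating adaptors and kinases, sialic acid genes, sialylated carriers, paired receptors, upstream factors and cell type markers, of which only the sums and called genes are given. Promoters came from RefSeq. Coordinates are from the GRCm38.p6 annotation. Protein sequences were not used here.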

Additional observations from a re-analysis of the deposited data

How the results depend on the processing

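Under 14 alternatives (limma-voom, other filters, pseudocount, scalings, no trend, a block and each library left out) none of the 9 tested receptors changed direction where it was fitted (13 of 14 for Cd300ld and Siglecg, which fall under a mean of 5 RPKM), and Cd300lf was called in all 14, with log2 fold changes from -3.17 to -2.57. Siglece was called in 10 of 14 and Siglecg in 6 of 13. Of the 3 receptors called, 1 to 2 were called with a library left out, 1 of them without Asic3-null replicate 3 or WT replicate 1. Replicate numbers did not pair the samples (correlations of same-numbered deviations 0.06, -0.06 and -0.12); with the replicate block 1 receptor was called, and over all genes 246 in place of 403. With a library left out, the latter was 172 to 258. Of the lists, other family genes called went from 1 to 0 with a mean of at least 5 RPKM, where Cd300lg is not tested, and to 0 to 1 with a library left out. ITIM effectors went from 0 to 1 with limma-voom and to 0 to 1 with a library left out. Activating adaptors and kinases went from 4 to 1 with no trend or the block, and to 1 to 2 with a library left out. Sialic acid genes went from 2 to 1 with a mean of at least 5 RPKM, no filter, quantile normalization or the block, and to 0 to 1 with a library left out. Paired receptors went from 9 to 7 with a mean of at least 5 RPKM or the block, to 8 with no filter or no trend, and to 4 to 10 with a library left out. Upstream factors went from 1 to 0 with no filter, no trend, a pseudocount of 0.1, the block or any library left out. The cause of these changes was not tested. The log2 fold change of Cd300c ran from -0.78 to 0.12 with a library left out, and was above 0 without Asic3-null replicate 2. That of Mag ran from -0.42 to -0.055. Depth limits Siglec1, at 3 reads or fewer in every library, and Siglecg, at 3 to 6 reads in the Asic3-null-labelled libraries. Cd300lg, at 8, 3 and 5 reads in the Asic3-null-labelled libraries, has the same limit.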

Other observations

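Among 8 transcription factors of myeloid differentiation, 1 fell and 0 rose, with a median log2 fold change of -0.41. Of the 8, 5 had an unadjusted p under 0.05. Over all tested genes, 2.82% were called lower and 15.9% had an unadjusted p under 0.05. Cebpb, a factor of emergency granulopoiesis and monocytes, was at 51.7, 49.7 and 46.2 RPKM in the Asic3-null-labelled libraries and at 80.0, 68.6 and 104 RPKM in the WT-labelled ones (log2 fold change -0.74, limma adjusted p = 0.0461), and its call was lost without each of the 6 libraries in turn (limma adjusted p = 0.0517 to 0.176). Cebpd and Spi1, the gene of PU.1, were not called (log2 fold changes -0.51 and -0.38, limma adjusted p = 0.113 and 0.136).

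Over the 6 libraries, the tested genes whose log2 levels followed Cd300lf most closely were Cd177, a neutrophil surface gene, the stefin gene Stfa1 and the keratin gene Krt80 (Pearson r = 0.999, 0.998 and 0.996). Cd177 was at 27.1, 26.9 and 27.0 RPKM in the Asic3-null-labelled libraries and at 134, 80.6 and 82.5 RPKM in the WT-labelled ones. All points share the group difference, so that these correlations are descriptions. The genes closest to Cd33, the most abundant receptor, were Zfp950, Dram2 and 9330133O14Rik (r = 0.992, 0.990 and 0.990), each highest in WT replicate 1.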
